A study of Homo sapiens with 6 samples.

Results

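The integrated stress response genes described here are ATF4, ATF5, ATF3, DDIT3 (which encodes CHOP), TRIB3, CHAC1, ASNS, PPP1R15A, EIF2AK3 and EIF2AK4. They were chosen by name, and every probe set that the platform annotation assigns to one of these 10 genes alone was used, which gave 125 of 352859 probe sets. The study asked whether mitochondria taken from another cell line change the activity of natural killer cells. Expression was measured on Affymetrix arrays in NK-92MI cells, a human natural killer cell line that makes its own IL-2, with 3 arrays labelled Control and 3 labelled Mitochondrial transfer. The transfer cells had received 5 µg of mitochondria from WRL-68 cells, a line described in the study as normal hepatic cells, by centrifugation at 1500 × g for 15 min. All samples carry that same treatment text, so the labels do not say whether control cells were centrifuged, and the time between transfer and harvest is not given in the sources used here. Both groups come from 1 cell line, and nothing says that the replicates were separate cultures, so p-values measure only the spread between these samples.

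The integrated stress response is a pathway that slows protein synthesis under stress. Its kinases, among them PERK (EIF2AK3) at the endoplasmic reticulum and GCN2 (EIF2AK4) for amino acid shortage, phosphorylate the translation factor eIF2, which lowers general translation while the mRNA of ATF4 is translated more. ATF4 then binds the promoters of amino acid and stress genes, often with a C/EBP partner, and CHOP and ATF3 act further downstream. Mitochondrial damage is known to raise the transcripts of ATF4 targets in mammalian cells through the same pathway. Since ATF4 protein is controlled largely at translation, its mRNA on an array is not a measure of its activity, and target transcripts were read beside it.

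The promoters of 4 member genes hold a sequence that factors of this family are known to bind, and they are shown because these genes are the pathway's transcriptional readout. RefSeq promoters (GRCh38.p14) were searched in the 250 bases before each start, on both strands, and all 10 genes matched with 18 windows. The C/EBP-ATF composite element, written TGATGNAA, was found in the windows of ASNS, ATF3 and CHAC1 (3 of 18 windows, against 3.14% of all 35116 windows), and CHAC1 alone held its strict form TGATGCAA (0.772% of all windows), which is one of the TGATGNAA matches. The cAMP response element TGACGTCA, which reads the same on both strands, was found only for PPP1R15A (1.65% of all windows). CCAAT was found for ATF3, CHAC1, DDIT3 and EIF2AK3 (32.0% of all windows), and the ER stress element, CCAAT followed after 9 bases by CCACG, for none (0.074% of all windows). The stretches below run 5′ to 3′ on the strand of the gene, with the match in capitals. ATF3 and ASNS had 2 windows each, of which 1 held the match, and sequence further than 250 bases before a start was not searched. A match describes the letters and not binding.
ASNS promoter, chr7:97872439-97872506, minus strand, match beginning 68 bases before the start: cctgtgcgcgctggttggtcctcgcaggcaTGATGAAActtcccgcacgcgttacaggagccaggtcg
CHAC1 promoter, chr15:40953232-40953299, plus strand, match on the opposite strand, 209 bases before the start: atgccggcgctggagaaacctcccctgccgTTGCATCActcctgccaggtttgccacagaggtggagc
ATF3 promoter, chr1:212565186-212565253, plus strand, match beginning 191 bases before the start: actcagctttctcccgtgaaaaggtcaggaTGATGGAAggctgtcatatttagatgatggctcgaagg
PPP1R15A promoter, chr19:48872333-48872400, plus strand, match beginning 58 bases before the start: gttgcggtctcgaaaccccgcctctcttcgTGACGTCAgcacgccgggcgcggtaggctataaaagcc

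Each value is a log2 intensity that the authors computed by RMA for 1 exon-level probe set. For each of 22260 genes the brightest probe set, by its mean over all 6 arrays, gave the gene's value, and limma was fitted over all genes, with p-values adjusted by the Benjamini-Hochberg method and called under 0.05. The background was set at 6.59, the 95th percentile over 387 genes for olfactory receptors, taken as genes that these cells do not use. Pearson's r across genes, which are not independent of each other, was at least 0.969 between arrays of a group and at least 0.961 between groups. The natural killer cell label was checked on 15 markers. All 15 lay above background, with IL2RB, NCAM1 and GNLY among the highest, and their mean log2 intensity ranged from 10.69 to 10.87 in controls and from 10.68 to 10.85 after transfer. These means held unequal changes: 12 of the 15 had negative differences, of which TYROBP (−0.66), GZMB (−0.54) and CD2 (−0.42) had the smallest p (limma adjusted p = 0.111, 0.119 and 0.186). FCER1G rose by 2.61 on its brightest probe set (limma adjusted p = 0.000884). Of its 6 other probe sets, 4 were higher and 2 lower, with a median difference of only 0.09. The mean over 15 hepatocyte markers ranged from 6.94 to 7.17 in controls and from 7.05 to 7.11 after transfer. Of these, 12 lay above background, as did 71.9% of all genes, so that lying above it does not show that a gene is in use. The highest was ALB at 9.47, and HP, CYP3A4 and FGA lay under the background. The part of either marker list in the results on the stress genes was not tested. In a bulk sample, less RNA per cell and fewer cells carrying a transcript cannot be told apart.

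No member gene passed the test after mitochondrial transfer, in either direction. Of 10 genes, 0 were higher and 0 lower, while 1.74% of all genes were higher and 0.234% lower by the same rule. At an unadjusted p under 0.05 in limma, 0 members were higher and 1 (ATF5) was lower, against 10.6% and 7.31% of all genes. The methods' t-test with the same adjustment also called 0 members. Among the members, 4 differences were positive and 6 negative, where 49.4% of all genes had a negative difference. The members' differences lay between −0.43 and 0.32, with a median of −0.16 where that of all genes was 0.00. Without transfer replicate 1 the median was 0.03. The upper end of the 95% interval of the difference lay below 1 on the log2 scale for all 10 genes on their brightest probe set, the highest being 0.85 for ASNS. The lowest lower end was −1.59, for DDIT3. For DDIT3 and ATF3, whose brightest probe sets lie at the background, these limits say little.

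**Figure D1:**
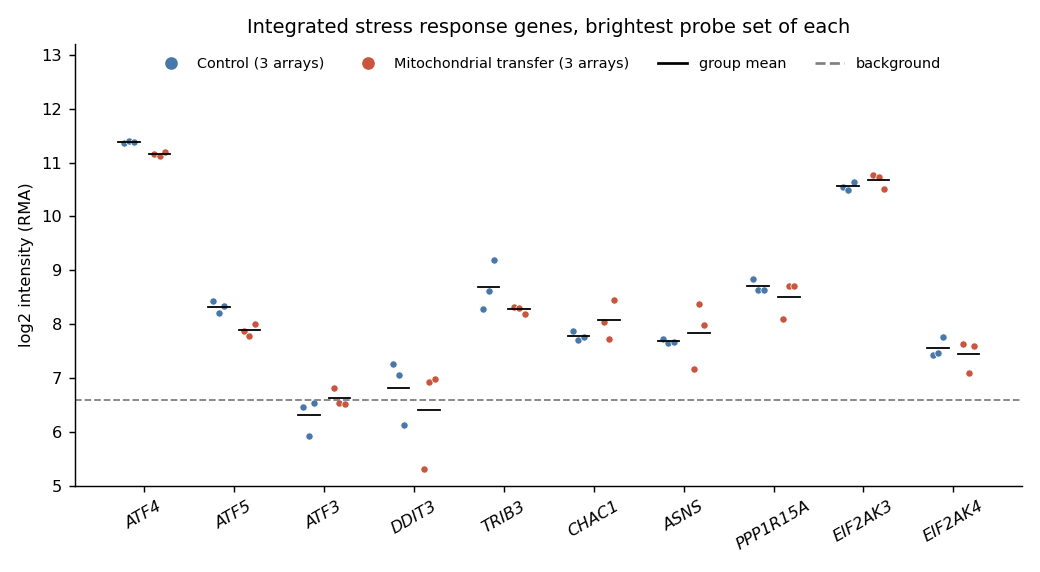
Log2 intensity (vertical axis) of the brightest probe set of each member gene (horizontal axis) on the 3 Control and the 3 Mitochondrial transfer arrays. Points are arrays, black bars are group means and the dashed line is the background of 6.59; only for ATF4 and ATF5 do the groups not overlap, and ATF3 and DDIT3 lie at the background.

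The tightest pattern was that of ATF4, the central transcription factor of the pathway (chr22:39520559-39522686, GRCh38.p14). On its brightest probe set, 16930303, the log2 intensity was 11.37, 11.40 and 11.39 in control replicates 1, 2 and 3 and 11.16, 11.11 and 11.20 in the transfer replicates. Every transfer array was below every control array. The means were 11.38 ± 0.02 and 11.16 ± 0.04 (SD, n = 3 each), a difference of −0.23 (standard error 0.12, limma adjusted p = 0.374), which is 0.854 times the control level. The 95% interval ran from −0.52 to 0.06. ATF4 lies in the brightest of 10 equal bins of genes by intensity, where the median difference was −0.07.

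The other probe sets of ATF4 ran the same way. All 7 had lower means after transfer, with differences from −0.46 to −0.14 and a median of −0.29, and on 6 of them the groups did not overlap. Over all probe sets 10.3% were lower without overlap, and 16.3% of those above background. How many genes have 6 such probe sets of 7 was not computed. Of the 7, 5 had a mean above background, and 16930301, under it, is among the 6 without overlap. On probe set 16930304, with the largest difference, the control arrays read 8.998, 9.18 and 9.32 and the transfer arrays 8.85, 8.51 and 8.75. On probe set 16930305, transfer replicate 3 read 7.88 while the other transfer arrays, at 8.78 and 8.69, lay close to the controls at 8.83, 8.78 and 8.80. There the groups were barely apart, the highest transfer array reading 8.7753 and the lowest control array 8.7761. The exception to the separation was the dim probe set 16930300, where the highest transfer array (6.27) was above the lowest control array (6.13). Of all 1024 genes with 7 probe sets, 5.76% had 7 lower means, and 13.3% of all genes had a lower median difference over their probe sets than ATF4. In the fit over all probe sets, the smallest adjusted p of an ATF4 probe set was 0.516. The difference of the gene was negative under every alternative run, between −0.41 and −0.18, and the smallest adjusted p, 0.0720, came from the methods' t-test.

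**Figure D2:**
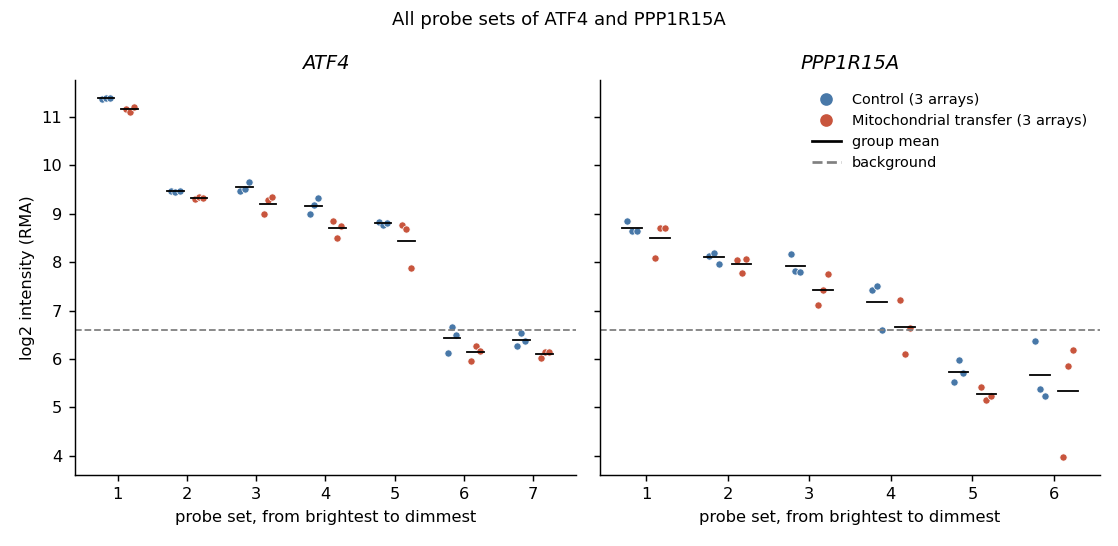
Log2 intensity (vertical axis) of the 7 probe sets of ATF4 and the 6 of PPP1R15A, ordered from brightest to dimmest, on each array. Points are arrays, black bars are group means and the dashed line is the background; each of the 13 transfer means is below its control mean, with less overlap between groups for ATF4 than for PPP1R15A.

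PPP1R15A (GADD34) encodes the subunit that directs a phosphatase to eIF2 and thereby ends the response, and its mRNA, too, is translated under stress. It was the other member with a lower mean on every probe set, so that 2 of 10 members had this pattern. Of all genes with at least 5 probe sets 2.82% did, but many of these have more probe sets (median of all genes 10). Among genes with 7 probe sets the share was 5.76%. Lower means were also common, being found for 61.8% of all probe sets above background. All 6 probe sets of PPP1R15A had lower means after transfer, with a median of −0.39. The groups did not overlap on 2 of them, where 10.3% of all probe sets were lower without overlap. On the brightest, 16863881, the controls read 8.84, 8.64 and 8.64, and the transfer arrays 8.09, 8.71 and 8.71. The lower mean on that probe set came from transfer replicate 1, since the other transfer arrays lay within the range of the controls. The difference was −0.21 (standard error 0.20, limma adjusted p = 0.638), and without transfer replicate 1 it was 0.00078. On probe set 16863882, where the groups were apart, the controls read 8.17, 7.82 and 7.79, and the transfer arrays 7.11, 7.43 and 7.76.

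Neither kinase gene upstream of ATF4 passed the test. EIF2AK3, the PERK gene, had 19 of 22 probe sets above background, the most of any member. Its brightest probe set read 10.54, 10.50 and 10.65 in controls and 10.77, 10.73 and 10.51 after transfer, so that the groups overlapped (difference 0.11, standard error 0.14, limma adjusted p = 0.726). Over all its probe sets, 8 differences were positive and 14 negative, with a median of −0.15. They did not run together: 2 probe sets were higher and 3 lower without overlap, where 7.53% and 10.3% of all probe sets were. Probe set 16900074 read 7.52, 7.48 and 7.43 in controls and 8.14, 8.13 and 8.01 after transfer (difference 0.62, limma adjusted p = 0.384 over all probe sets). The dim probe set 16900077 had a difference of −1.20 (adjusted p = 0.466) with transfer arrays spread from 5.08 to 6.74, below the lowest control array at 6.80. EIF2AK4, the GCN2 gene, had only 3 of 31 probe sets above background. Its brightest read 7.42, 7.47 and 7.77 in controls and 7.63, 7.10 and 7.60 after transfer (difference −0.11, standard error 0.20, limma adjusted p = 0.804), and without transfer replicate 2 the difference was 0.06.

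ATF5, a transcription factor related to ATF4 that is linked to the mitochondrial unfolded protein response in mammals, had the smallest p of the members in this fit (0.0163 in limma, unadjusted). Under the methods' t-test and with limma's trend and robust options, ATF4 had a smaller one than ATF5. When probe sets were averaged, ATF3 and ATF4 both did, and the smallest was that of ATF3, whose difference was positive. With 1 array left out, TRIB3 (without control replicate 1), ASNS (without transfer replicate 1) and CHAC1 (without transfer replicate 2) had smaller ones. The brightest probe set of ATF5, 16864397, read 8.43, 8.21 and 8.33 in controls and 7.88, 7.78 and 8.01 after transfer. The groups did not overlap (difference −0.43, standard error 0.14, limma adjusted p = 0.178). With ATF4, it was 1 of 2 members lower without overlap on the brightest probe set, where 11.8% of all genes were, and no member was higher without overlap, where 13.9% of all genes were. The 6 probe sets of ATF5 disagreed in direction. On 3 of them the means were lower and the groups apart, among them 16864394, which read 7.43, 7.13 and 6.98 in controls and 6.18, 5.13 and 5.81 after transfer (difference −1.47, adjusted p = 0.295 over all probe sets). Probe set 16864396 went the other way without overlap, from 6.95, 7.11 and 6.59 to 7.58, 7.66 and 7.17. Over all probe sets, 10.3% were lower without overlap. The gene's median difference was −0.18. Of its 3 probe sets above background, 2 had higher means and only the brightest a lower one (median 0.07). Probe set 16864394 was not among these 3. A further probe set that names both ATF5 and MIR4751 was outside the rule and had a difference of −0.40 (adjusted p = 0.554).

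DDIT3 encodes CHOP, the factor tied to cell death in prolonged stress, and its transcript was barely measured. Only its brightest probe set had a mean above background (6.61). That probe set read 7.25, 7.07 and 6.13 in controls and 5.32, 6.93 and 6.98 after transfer. The groups overlapped, control replicate 3 and transfer replicate 1 being the low arrays (adjusted p = 0.714 in limma, 95% interval −1.59 to 0.78). Without transfer replicate 1 the difference turned from −0.40 to 0.14. Of its 9 probe sets, 3 had higher and 6 lower means. ATF3, a stress-induced factor that can act as a repressor, had 0 of 10 probe sets above background. Its brightest read 6.46, 5.92 and 6.54 in controls and 6.82, 6.54 and 6.52 after transfer (limma adjusted p = 0.455).

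The 2 largest positive differences among the 125 probe sets were those of dim probe sets of ATF3. Probe set 16677282 read 4.97, 4.23 and 4.54 in controls and 6.59, 6.11 and 6.52 after transfer, and probe set 16677285 read 4.10, 5.16 and 4.73, then 5.91, 6.99 and 6.23. On both the groups were apart, by 1.83 and 1.71 between means (limma adjusted p = 0.160 and 0.318 over all probe sets), and on both the mean after transfer was under the background. Probe set 16677286 went the other way without overlap, with a difference of −1.12. Over the 10 probe sets of ATF3, 6 differences were positive and 4 negative.

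The remaining 3 members, TRIB3, CHAC1 and ASNS, are also among the genes switched on in this pathway, and none passed. TRIB3, a pseudokinase that binds ATF4, read 8.28, 8.61 and 9.19 in controls and 8.32, 8.31 and 8.19 after transfer. The controls were spread and the transfer arrays close together, with overlap (difference −0.42, standard error 0.24, limma adjusted p = 0.403), and its probe sets were split with 4 higher and 4 lower. CHAC1, which degrades glutathione, read 7.88, 7.71 and 7.77 in controls and 8.05, 7.73 and 8.45 after transfer. Its groups overlapped too (difference 0.29, standard error 0.20, limma adjusted p = 0.501), and 5 of its 8 probe sets had lower means. Only the brightest lay above background, so those 5 were dim. ASNS, asparagine synthetase, read 7.73, 7.66 and 7.66 in controls and 7.16, 8.37 and 7.99 after transfer. The transfer arrays lay on both sides of the controls (difference 0.16, standard error 0.29, limma adjusted p = 0.818), and without transfer replicate 2 the difference was −0.11. Of the 18 probe sets of ASNS, 4 lay above background, with 2 higher and 2 lower means. The promoter matches of CHAC1 and ASNS shown above belong to genes that did not pass the test.

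Over all 125 probe sets, 52 differences were positive and 73 negative, where 54.9% of all probe sets had negative differences. The median was −0.14, and that of all probe sets was −0.05. None of the 125 was higher or lower at an adjusted p under 0.05 in the limma fit over all probe sets. By that rule 0.0578% of all were higher and 0.0034% lower. At an unadjusted p under 0.05 in limma, 5 were higher and 6 lower, against 4.68% and 5.36% of all probe sets. Without overlap between groups, 7 were higher and 18 lower, against 7.53% and 10.3% of all probe sets, and 6 of the 18 belong to ATF4. Among the 46 with a mean above background, 29 differences were negative, against 61.8% of all such probe sets (medians −0.13 and −0.10). Without overlap, 3 of the 46 were higher and 9 lower, against 8.26% and 16.3% of all such probe sets. The largest negative difference, −2.14, was that of a dim probe set of TRIB3, 16910613, whose groups overlapped (limma adjusted p = 0.548). Probe sets of 1 gene share its transcript and are not independent of each other.

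**Figure D3:**
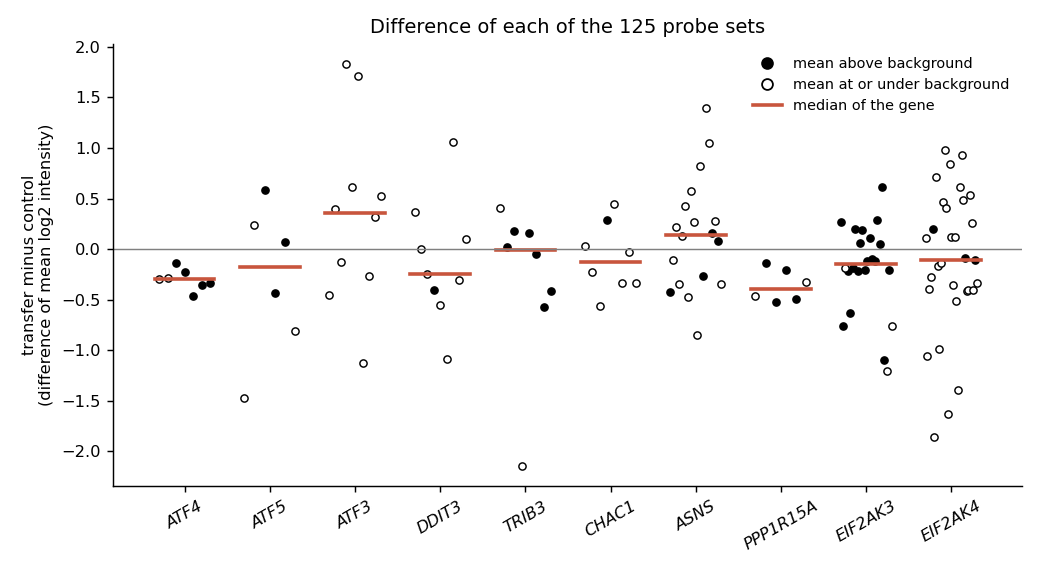
Transfer minus control (vertical axis, difference of mean log2 intensity) of all 125 probe sets, by gene. Filled points have a mean above background, open points at or under it, and red bars are medians per gene; all points of ATF4 and PPP1R15A lie below 0, while those of the other genes fall on both sides.

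Genes whose levels ran most like those of ATF4 over the 6 arrays, among 16005 others with a mean above background, were NCOA5, GEMIN7 and XRCC4 (Pearson's r = 0.999, 0.998 and 0.997). These were lower after transfer by means, with differences of −0.63, −0.68 and −0.37 (limma adjusted p = 0.0796, 0.0563 and 0.190), and 169 genes had an r above 0.95. For DDIT3 they were PLA2G1B, RSPH14 and CARD14 (r = 0.997, 0.995 and 0.992). With 6 arrays that share 1 contrast, such likeness is a description.

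Further genes of the pathway were read as 5 lists, of which 2 held a called gene, and their counts stand beside the same all-gene shares as above (1.74% higher and 0.234% lower at an adjusted p under 0.05 in limma, 10.6% and 7.31% at an unadjusted one). Of 24 measured genes of the amino acid programme of ATF4, 0 were higher and 0 lower (median difference 0.03), with 2 higher and 2 lower at an unadjusted p under 0.05 in limma. The glutamine transporter gene SLC1A5 had a difference of −0.71 (limma adjusted p = 0.0840), with all 10 of its other probe sets lower. The mitochondrial folate enzyme gene ALDH1L2 had 1.03 (adjusted p = 0.147) and the transsulfuration enzyme gene CBS 0.64 (adjusted p = 0.171), but the medians of their other probe sets were 0.00 and −0.33. Of 21 genes for eIF2, its exchange factor eIF2B, its other kinases and regulators, 0 were higher and 0 lower (median −0.05), with 0 higher and 2 lower at an unadjusted p under 0.05 in limma. The phosphatase gene PPP1CA had −0.42, the eIF2B subunit gene EIF2B2 −0.40 and PPP1R15B, the constitutive partner of PPP1R15A, −0.27 (limma adjusted p = 0.201, 0.206 and 0.311).

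Of 26 measured stress targets of ATF4 and CHOP, 2 rose and 0 fell (median difference 0.14), beside 1.74% and 0.234% of all genes. At an unadjusted p under 0.05 in limma, 4 were higher and 2 lower. The list was chosen with earlier results of these data known, so these counts are a description. DDIT4, which encodes an inhibitor of mTORC1 that also responds to hypoxia, read 10.70, 9.77 and 10.02 in controls and 11.60, 11.58 and 11.62 after transfer. All transfer arrays were above the controls, among which replicate 1 was highest (difference 1.44, standard error 0.24, limma adjusted p = 0.0353), and all 8 other probe sets of the gene were higher. NFIL3, which encodes a transcription factor needed for natural killer cell development, read 8.64, 8.52 and 8.63 in controls and 9.29, 9.46 and 9.46 after transfer, and its 3 other probe sets were higher as well (difference 0.80, standard error 0.13, adjusted p = 0.0325). The histone demethylase gene KDM7A had a difference of 0.77 (adjusted p = 0.0602). With 1 array left out, DDIT4 passed only without control replicate 1 (adjusted p = 0.0113), its highest adjusted p being 0.149 without control replicate 3. NFIL3 passed in none of the 6 such fits, with adjusted p from 0.0523 without transfer replicate 1 to 0.150 without control replicate 2.

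Of 10 genes of the mitochondrial unfolded protein response, 1 rose and 0 fell (median difference −0.20), with 2 higher and 2 lower at an unadjusted p under 0.05 in limma. The gene that rose was DNAJA3, which encodes a mitochondrial co-chaperone, with 9.66, 9.53 and 9.70 in controls and 11.21, 11.19 and 11.37 after transfer on its brightest probe set (difference 1.63, standard error 0.13, limma adjusted p = 0.00161). Of its 11 other probe sets, 10 had lower means, with a median difference of −0.31. The mitochondrial chaperone gene TRAP1 had −0.58 with all 13 other probe sets lower, and the protease subunit gene CLPP −0.49 (limma adjusted p = 0.114 and 0.163). The protease gene LONP1, also higher at the unadjusted p, had 0.46 (limma adjusted p = 0.190), with a median of 0.08 over its other probe sets. Of 14 measured genes of the other ER stress branches, 0 were higher and 0 lower (median 0.02), with 4 higher and 0 lower at an unadjusted p under 0.05 in limma. CRELD2, HYOU1 and PDIA4, which encode ER folding factors, had differences of 0.50, 0.42 and 0.40 (limma adjusted p = 0.165, 0.186 and 0.193), while the medians of their other probe sets were −0.45, −0.29 and −0.10. The fourth, EDEM1, which encodes a factor of ER-associated degradation and is named here after its values were seen, had 0.32 (limma adjusted p = 0.253), with 15 of its 17 other probe sets higher and a median of 0.29.

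**Figure D4:**
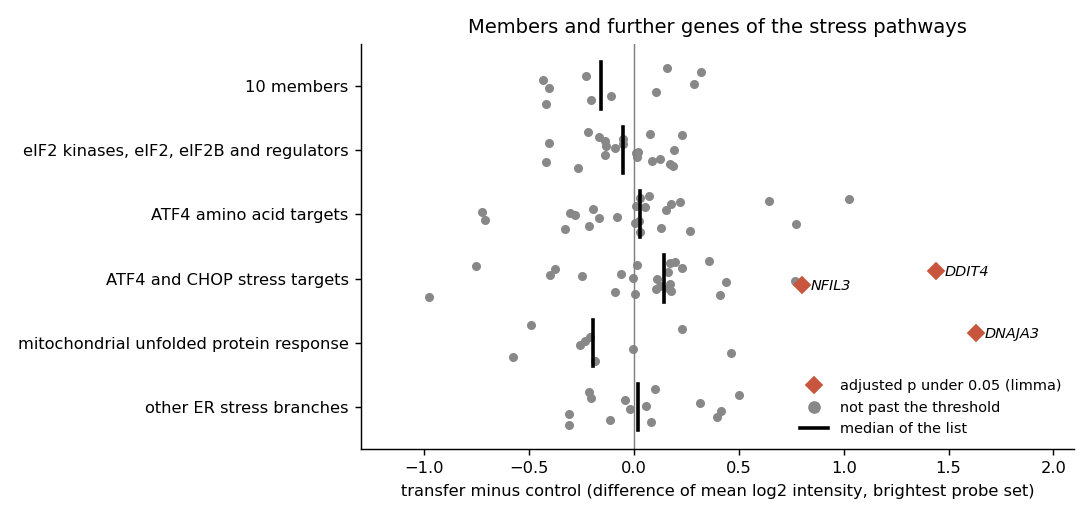
Transfer minus control (horizontal axis, difference of mean log2 intensity on the brightest probe set) for the 10 members and the 5 lists of further pathway genes (rows). Diamonds passed the limma test at an adjusted p under 0.05 and are named, grey points did not, and black bars are medians; no member is a diamond.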

How the data were processed

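Total RNA of 3 Control and 3 Mitochondrial transfer samples was hybridized to Affymetrix arrays. The deposited log2 intensities are those that the authors obtained by RMA in Affymetrix Power Tools (versions, genome build and probe filter not given in the sources used here). RMA corrects background, normalizes the arrays by quantiles and summarizes probes, so a shift common to all genes is removed.

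Of 352859 probe sets, 13116 naming several genes and 80519 naming none were left out of gene values. Symbols were updated through RefSeq (1726 updated, 20529 current, 65 unmatched). GARS1, SARS1, MARS1, BBC3 and HSP90B1 were not analysed here. Groups were compared in limma 3.58.1 (R 4.3.3) by lmFit and eBayes, two-sided, once over genes and once over all probe sets, without a filter. The fit was tested on simulated data. Precision is limited by having 3 arrays a group.

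Members and lists were chosen with earlier results of these data known. The named genes were all members, of each pathway list the called genes and, up to 3, those with the smallest p, the 3 genes most like ATF4 and DDIT3, and the markers at or under background with the 3 highest of the natural killer list. EDEM1, LONP1, FCER1G, TYROBP, GZMB, CD2 and ALB were named after their values were seen. Alternatives were quantile normalization, cyclic loess, centring on medians, only genes above background, the mean or median of probe sets, limma's trend and robust options, weights per array, a replicate block, the methods' t-test and leaving out each array.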

Additional observations from a re-analysis of the deposited data

How the results depend on the processing

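Over the 159 combinations of a member gene and an alternative, 0 passed the threshold, the smallest adjusted p being 0.0720 (ATF4, the methods' t-test), and 0 member probe sets were called under any of the alternatives run over probe sets. ATF3 had no value with only genes above background. Signs turned for CHAC1 and EIF2AK3 when probe sets were averaged (−0.0897 and −0.191), and for ASNS with the median of probe sets (−0.16). With 1 array left out, the difference of DDIT3 ran from −0.749 to 0.14 and that of PPP1R15A from −0.309 to 0.00078, both turning without transfer replicate 1, and that of ASNS from −0.107 to 0.496 and that of EIF2AK4 from −0.204 to 0.0622, both turning without transfer replicate 2. DNAJA3 turned to −0.21 when its probe sets were averaged and to −0.36 with their median. The cause was not tested. The median of the members was −0.24 after centring on medians, and −0.22 to 0.0292 with 1 array left out.

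Replicate numbers were tried as a block, although same-numbered arrays did not deviate together (r = 0.07, 0.01 and 0.01). With the replicate block, 0 members were called, the stress targets of ATF4 and CHOP had 0 higher genes instead of 2, and all genes had 154 higher and 4 lower instead of 388 and 52. These targets had 1 higher gene with the methods' t-test and with the probe sets averaged, 0 with the median of probe sets, and 0 to 1 with 1 array left out. They had 3 higher genes with limma's trend and robust options, and 3 higher and 1 lower with only genes above background. The amino acid list had 1 lower gene with only genes above background and with trend and robust. Its median turned from 0.03 to −0.10 when probe sets were averaged, −0.05 with their median and −0.05 after centring. All genes had medians of −0.03, −0.04 and −0.08 there. With probe sets averaged or their median taken, the other ER stress branches had −0.13 in both and the eIF2 list −0.18 and −0.21. With all arrays, medians kept their sign for the stress targets of ATF4 and CHOP (0.06 to 0.21) and the mitochondrial list (−0.28 to −0.10). The mitochondrial unfolded protein response had 0 higher genes when probe sets were averaged or their median was taken and 1 lower with limma's trend and robust options, where the other ER stress branches had 2 higher. All genes had 750 higher and 326 lower with trend and robust, 53 and 18 when probe sets were averaged, 14 and 2 with their median, 149 and 33 with the methods' t-test, 338 and 93 after centring, and 551 and 139 with only genes above background. With 1 array left out, 167 to 287 were higher and 1 to 60 lower, and over all probe sets 0 were called, against 204 higher and 12 lower with all arrays, 0 with the replicate block, 865 and 195 with only probe sets above background, and 935 and 241 with trend and robust.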
